A study of Mus musculus with 9 samples.

Results

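The transcripts of 42 listed genes of DNA replication and mitosis were followed in 9 cell lines grown out of mouse tumors of 4T1, a mammary carcinoma line that spreads to lung and brain. The genes were taken from a list of S-phase and mitosis genes and sorted by textbook role into 19 replication genes and 23 mitosis genes, and 41 of the 42 had a probe set of their own among the 19938 genes measured. The levels of Ccnb1, which encodes cyclin B1, are not analysed here, though its promoter is counted among those of the mitosis genes below. The 3 groups were brain lines (4T1-BM2, from brain metastases), lung lines (4T1-LM2, from lung metastases) and primary lines (4T1-T2, from primary tumors), with 3 lines each and every line from a different mouse. No treatment is given for any group. All 9 lines were thawed together and grown in parallel before RNA was taken, so the levels are those of cultured cells and not of tumors in the animal. The labels give no age or host strain, and do not say whether the 3 lines of an origin share a selected ancestor. Each line was measured on 1 array, and this small number of arrays sets the precision. Levels are log2 intensities, on which a difference of 1 is a doubling. They are compared between lines for the same gene and never between genes.

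A cell that divides passes through the same ordered program. In G1, cyclin E and its kinase free the E2F transcription factors, which switch on the genes for origin licensing, nucleotide synthesis and the replication fork. After S phase a later program follows, with the mitotic cyclins, the Aurora and Polo kinases, the spindle checkpoint and the motors that move chromosomes, driven by FoxM1 and B-Myb. These transcripts are abundant in cycling cells and scarce in resting ones, and for that reason some of them, Mki67 above all, are used to grade the growth of breast tumors. In RNA from a whole culture, fewer cells in a phase of the cycle and less RNA per cell cannot be told apart.

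Promoter sequences show the words through which these programs are known to be read. RefSeq promoters of the mouse reference strain (build GRCm38.p6, 250 bases before to 50 bases after the annotated start) were at hand for 34 of the 42 genes, with 18 promoters of 16 replication genes and 18 promoters of 18 mitosis genes. The E2F words searched were TTTGGCGC, TTTCCCGC, TTTCGCGC and TTTGCCGC, on both strands. They were present in 8 of 18 replication promoters (44.4%) and in 1 of 18 mitosis promoters (5.56%), against 2.26% of all 32851 promoters. The cell cycle homology region, or CHR, was searched as TTTGAA and TTCGAA on both strands, without regard to overlap with other words, and was present in 14 of 18 mitosis promoters (77.8%) and 3 of 18 replication promoters (16.7%), against 19.2% of all promoters. CCAAT, the box bound by NF-Y, was present on either strand in 16 of 18 mitosis promoters (88.9%) and 12 of 18 replication promoters (66.7%), against 37.4% of all promoters. A CHR word together with a CCAAT box was found in 77.8% of mitosis promoters and 16.7% of replication promoters, against 7.52% of all promoters. These are matches of letters, and binding was not measured.

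The promoters of 3 mitosis genes are shown because these genes lay farthest below their 9-line mean, within their roles, in the primary line that stands apart below: Aurka (Aurora kinase A), Bub1 (a checkpoint kinase) and Cenpf (a kinetochore protein). Capitals mark CHR words and CCAAT boxes, read 5′ to 3′ in the direction of the gene.
Aurka, chr2:172370521-172370820, minus strand: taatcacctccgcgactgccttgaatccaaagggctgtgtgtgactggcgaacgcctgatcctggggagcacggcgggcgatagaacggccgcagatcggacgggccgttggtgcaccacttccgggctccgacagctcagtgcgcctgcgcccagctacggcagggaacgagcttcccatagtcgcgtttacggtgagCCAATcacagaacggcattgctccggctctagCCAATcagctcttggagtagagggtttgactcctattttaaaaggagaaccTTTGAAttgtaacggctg
Bub1, chr2:127831810-127832109, minus strand: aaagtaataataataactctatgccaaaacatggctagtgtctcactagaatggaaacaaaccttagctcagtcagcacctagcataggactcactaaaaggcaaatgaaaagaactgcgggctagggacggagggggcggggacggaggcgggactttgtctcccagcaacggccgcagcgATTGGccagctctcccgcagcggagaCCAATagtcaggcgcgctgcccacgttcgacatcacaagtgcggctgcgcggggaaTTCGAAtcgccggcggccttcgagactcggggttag
Cenpf, chr1:189688037-189688336, minus strand: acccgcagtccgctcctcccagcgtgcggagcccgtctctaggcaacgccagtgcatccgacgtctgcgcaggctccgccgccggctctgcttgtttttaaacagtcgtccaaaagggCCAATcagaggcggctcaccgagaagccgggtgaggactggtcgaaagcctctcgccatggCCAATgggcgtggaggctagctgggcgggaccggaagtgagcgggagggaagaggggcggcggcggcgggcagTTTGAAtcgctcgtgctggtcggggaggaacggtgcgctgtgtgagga
In each of the 3, the CHR word lies just after the annotated start, at base 33 in Aurka, base 15 in Bub1 and base 3 in Cenpf, with a pair of CCAAT boxes before the start.

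The promoters of 3 replication genes are shown for contrast, because Mcm6 and Mcm7 encode helicase subunits that were lowest in brain line 3, and Cdc25a was higher in every brain line than in any other line. Capitals mark E2F words alone. CCAAT boxes in all 3 and a CHR word in Mcm7 are present but not marked. Another Mcm7 promoter, at chr5:138171217-138171516, holds no E2F word and is not shown.
Mcm6, chr1:128359656-128359955, minus strand: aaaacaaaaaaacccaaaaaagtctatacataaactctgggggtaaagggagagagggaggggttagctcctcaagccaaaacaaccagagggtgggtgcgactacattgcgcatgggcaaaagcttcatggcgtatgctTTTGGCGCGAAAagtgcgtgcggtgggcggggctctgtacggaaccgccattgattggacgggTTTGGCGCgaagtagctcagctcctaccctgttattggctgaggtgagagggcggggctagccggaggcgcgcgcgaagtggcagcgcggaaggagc
Mcm7, chr5:138171834-138172133, minus strand: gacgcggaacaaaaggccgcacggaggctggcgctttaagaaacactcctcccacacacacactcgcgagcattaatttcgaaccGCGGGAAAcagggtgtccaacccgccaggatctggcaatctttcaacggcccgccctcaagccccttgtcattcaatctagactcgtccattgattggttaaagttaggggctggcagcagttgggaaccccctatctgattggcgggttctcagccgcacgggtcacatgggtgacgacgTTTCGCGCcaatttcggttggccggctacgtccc
Cdc25a, chr9:109875329-109875628, plus strand: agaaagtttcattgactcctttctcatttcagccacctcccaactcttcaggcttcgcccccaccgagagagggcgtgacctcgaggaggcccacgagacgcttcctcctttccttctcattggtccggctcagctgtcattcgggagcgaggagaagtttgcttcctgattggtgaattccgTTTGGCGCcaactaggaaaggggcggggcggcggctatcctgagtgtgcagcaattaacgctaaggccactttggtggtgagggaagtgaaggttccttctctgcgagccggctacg
In Mcm6 the E2F words at bases -110 and -106 from the start overlap on opposite strands, with another at base -47. In Mcm7 they lie at bases -165 and 17, and Cdc25a has 1 at base -67.

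All 41 measured genes lay above the background reference in every line. Their lowest value in any line was 6.23, in E2f2, against a median of 4.18 for the probe sets with no gene symbol, which stands in for background here. The lines carried epithelial transcripts, with 8 of 9 epithelial markers above 4.18 in all 9 lines and a mean level of 9.74 to 9.86 in brain lines, 8.83 to 9.28 in lung lines and 8.78 to 9.23 in primary lines. Of 8 macrophage and microglia markers, Ptprc, Adgre1, Aif1 and Itgam were below 4.18 in all 9 lines. Cd68, Cx3cr1 and Tyrobp were above it in all 9. The mean of the list was 4.28 to 4.40 in brain lines, 4.28 to 4.41 in lung lines and 4.32 to 4.34 in primary lines. The fibroblast genes Dcn and Lum were below 4.18 in all 9 lines, while Pdgfra, Col1a1, Col1a2 and Thy1 were above it in all 9. Pdgfra was the highest of these, with means of 7.30 in brain, 7.54 in lung and 7.57 in primary lines. The 7 fibroblast markers averaged 4.98 to 5.23 in brain lines, 5.07 to 5.24 in lung lines and 5.16 to 5.38 in primary lines. Measured lymphocyte, endothelial, lung epithelium, astrocyte and neuron markers had list means between 3.94 and 4.70 in every line, and the 3 oligodendrocyte markers between 5.01 and 5.33. The interquartile range of the deviations of all genes from their 9-line means was 0.187 in brain line 3 and 0.182 in lung line 1, the widest of the 9 lines.

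Over the 9 lines, the ranges of the replication and mitosis genes were near those of all genes. They were not compared with genes of similar intensity. Between the lowest and the highest line, a replication gene differed by a median of 0.34 and a mitosis gene by 0.39 on the log2 scale, against 0.42 over all genes. None of the 41 spanned more than 1 log2 unit, which 4.42% of all genes did. Mcm2, a subunit of the MCM helicase that unwinds DNA at origins, was the steadiest, with 10.51, 10.49 and 10.46 in brain lines, 10.45, 10.46 and 10.46 in lung lines and 10.41, 10.41 and 10.42 in primary lines. Cdk1, the kinase that drives entry into mitosis, spanned 0.14, Ttk, the checkpoint kinase Mps1, spanned 0.15, and Pcna, the sliding clamp of the replication fork, spanned 0.15.

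**Figure D1:**
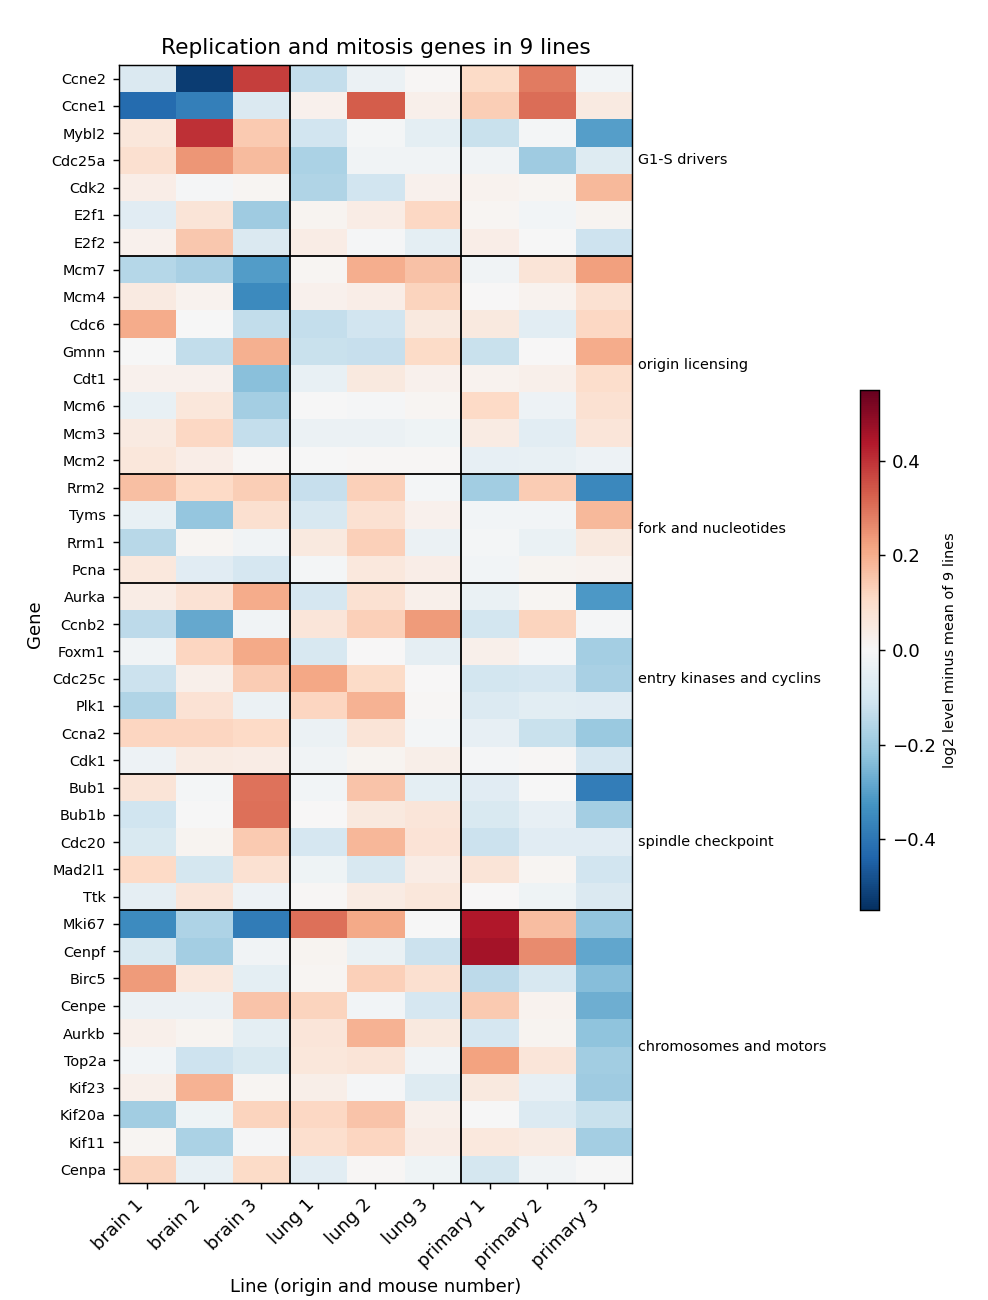
Each row is a gene and each column a line, and the colour gives the log2 level minus that gene's mean over the 9 lines, from blue (lower) to red (higher), with horizontal rules between the 6 roles. All 22 mitosis rows lie below their mean in primary line 3 (20 of 22 after median centring), Cenpa and Ccnb2 only just. In brain line 3, 6 of 8 licensing rows have their lowest value (4 of 8 after median centring, as in lung line 1).

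The widest range, 0.90, belonged to Ccne2, which encodes cyclin E2, a partner of Cdk2 at the start of S phase. Its levels were 7.56, 7.12 and 8.02 in brain lines, 7.51, 7.61 and 7.65 in lung lines and 7.75, 7.93 and 7.63 in primary lines. Both the lowest and the highest value came from brain lines, so their range enclosed the lung and primary lines. Lung and primary lines overlapped only in that lung line 3 lay just above primary line 3. Mki67, the proliferation antigen that coats mitotic chromosomes, spanned 0.82. Bub1 spanned 0.68 and Rrm2, the regulatory subunit of ribonucleotide reductase, spanned 0.52.

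Ccne1 spanned 0.76, Cenpf 0.74, Mybl2 0.71 and Mcm7 0.53, and their values follow below. Of the other genes, Tyms, which makes thymidylate, spanned 0.39 over the 9 lines, and Rrm1, the catalytic subunit of ribonucleotide reductase, 0.28. The licensing factors Cdc6 and Cdt1 spanned 0.34 and 0.33, and the helicase subunits Mcm3 and Mcm6 0.24 and 0.30. Among the regulators of S-phase entry, Cdk2 spanned 0.35 and the transcription factors E2f1 and E2f2 0.31 and 0.26. Among the mitosis genes, Foxm1, the transcription factor of late cell cycle genes, spanned 0.40, and Plk1, the Polo kinase, 0.35. Cdc20, the activator that lets the anaphase-promoting complex end mitosis, spanned 0.30, and Mad2l1, the checkpoint protein that holds Cdc20 back, 0.21. The kinesins Kif11, which builds the bipolar spindle, and Kif20a and Kif23, which act at the midzone in cytokinesis, spanned 0.31, 0.35 and 0.39. Cenpe, the motor of the kinetochore, spanned 0.42, and Cenpa, the histone that marks centromeres, 0.22.

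Whether the origin of a line goes with these transcripts was asked first across all 3 origins at once. With limma's F test, 0 of 41 genes passed an adjusted p of 0.05 (Benjamini-Hochberg over all 19938 genes), where 2.36% of all genes did. At an unadjusted p under 0.05 there were 8 of 41 (19.5%), against 14.6% of all genes, and the smallest adjusted p was 0.113, for Mcm7.

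In brain lines against primary lines, no replication or mitosis gene passed the test, 0 of 41 against 3.13% of all genes. At an unadjusted p under 0.05 there were 10 of 41 (24.4%), against 15.8% of all genes. The 3 lines of each origin did not overlap in 8 of 41 genes (19.5%), against 17.8% of all genes. Of the 8, Mybl2, Cdc25a, Mcm2, Ccna2, Birc5 and Aurka had the higher values in brain lines, and Ccne1 and Mcm7 the lower. The share that did not overlap was close to the background.

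Ccne1, which encodes cyclin E1, had the largest difference. Its levels were 7.79, 7.84 and 8.14 in brain lines, 8.24, 8.55 and 8.25 in lung lines and 8.35, 8.52 and 8.27 in primary lines. Every brain line lay below every other line. Against primary lines the log2 difference was -0.46 ± 0.12 (SE, 95% interval -0.73 to -0.19, limma adjusted p = 0.0790), and against lung lines it was -0.42 ± 0.12 (-0.69 to -0.15, adjusted p = 0.122). Over 18 alternative settings the adjusted p against primary lines ranged from 0.0408 to 0.234, and it was under the threshold after a repeated quantile normalization and with array weights.

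Mcm7, another subunit of the MCM helicase, also had all 3 brain lines below the rest, at 10.62, 10.60 and 10.47, against 10.79, 10.98 and 10.94 in lung lines and 10.76, 10.85 and 11.00 in primary lines. The difference from primary lines was -0.31 ± 0.09 (-0.50 to -0.11, adjusted p = 0.0984) and that from lung lines -0.34 ± 0.09 (-0.53 to -0.15, adjusted p = 0.0903). Both comparisons use the same brain lines and are not independent of each other. Over the 18 settings the adjusted p against lung lines ranged from 0.0450 to 0.256.

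Mybl2, the gene of B-Myb, an activator of late cell cycle genes that is itself switched on by E2F, had its highest values in brain lines, at 8.71, 9.05 and 8.79, against 8.55, 8.64 and 8.60 in lung lines and 8.53, 8.64 and 8.35 in primary lines. The brain lines lay above all other lines, while lung and primary lines overlapped, and the difference of brain from primary lines was 0.35 ± 0.10 (0.12 to 0.58, adjusted p = 0.115). Cdc25a, the phosphatase that removes the inhibitory mark from Cdk2, showed the same order, with 9.70, 9.85 and 9.78 in brain lines, 9.44, 9.59 and 9.59 in lung lines and 9.59, 9.41 and 9.54 in primary lines. Its difference from primary lines was 0.26 (adjusted p = 0.115) and from lung lines 0.24 (adjusted p = 0.173). The other G1-S genes, Cdk2, E2f1 and E2f2, differed from primary lines by -0.06, -0.07 and 0.06 in brain lines.

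Ccna2, the gene of cyclin A2, which works in both S phase and mitosis, was even among the brain lines. It stood at 11.44, 11.44 and 11.43 in brain lines, 11.29, 11.39 and 11.31 in lung lines and 11.27, 11.20 and 11.12 in primary lines. The 3 origins were ordered without overlap, and the difference of brain from primary lines was 0.24 ± 0.07 (0.09 to 0.39, adjusted p = 0.0910). With an intensity trend and a robust prior the adjusted p was 0.0480, the lowest of 18 settings, and the highest was 0.239.

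Mki67 had 9.54, 9.72 and 9.50 in brain lines, 10.19, 10.10 and 9.88 in lung lines and 10.33, 10.06 and 9.67 in primary lines. All brain lines were below all lung lines, while primary line 3 lay inside the range of the brain lines. The difference from primary lines was -0.43 ± 0.15 (-0.77 to -0.09, adjusted p = 0.185) and from lung lines -0.47 ± 0.15 (-0.81 to -0.13, adjusted p = 0.169). Without primary line 3, a choice made after the values were seen, the difference of brain from primary lines was -0.61 ± 0.12 (limma adjusted p = 0.0488). That p rests on the values that set the line apart and is not separate support.

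**Figure D2:**
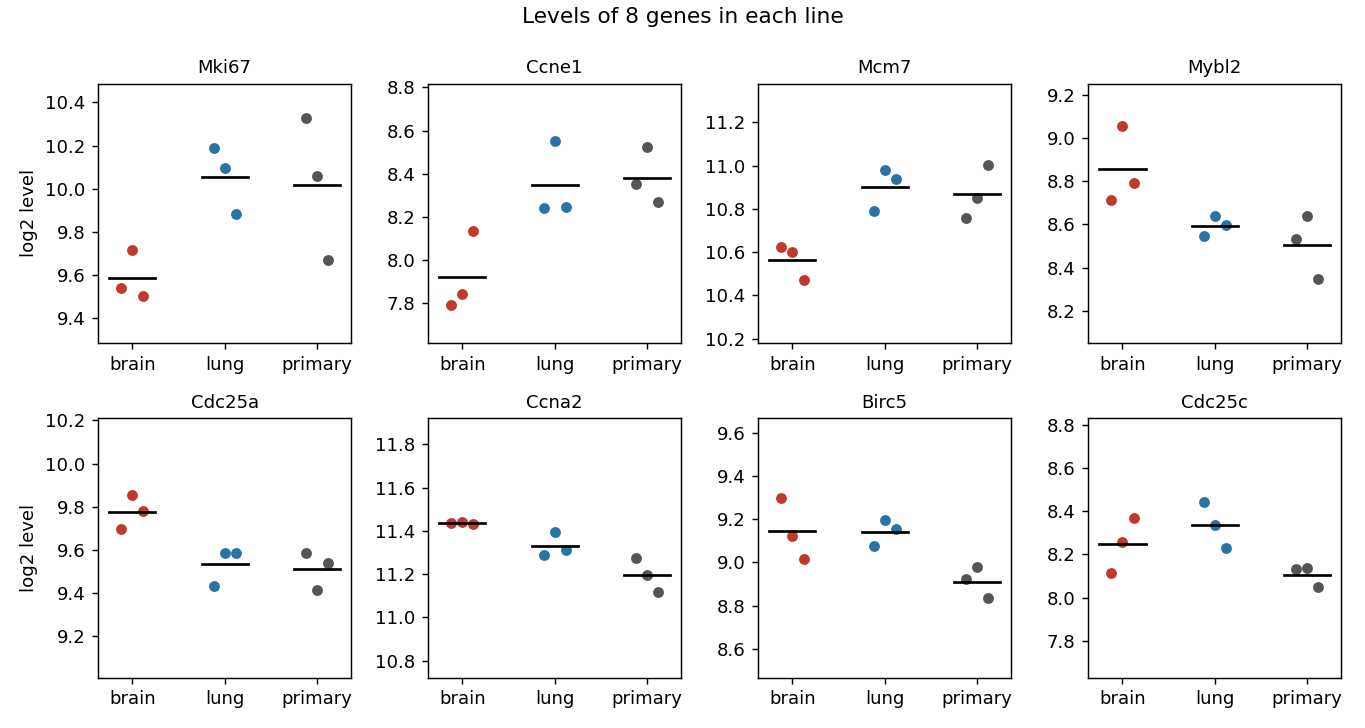
Each panel gives the log2 level of a gene (vertical axis) in the 3 lines of each origin, as points, with the mean as a black bar. Brain lines lie below all others in Ccne1 and Mcm7 and above all others in Mybl2, Cdc25a and Ccna2, and primary lines lie below all lung lines in Birc5 and Cdc25c.

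In brain lines against lung lines, 0 of 41 genes passed, where 1.98% of all genes did, and 6 of 41 (14.6%) had an unadjusted p under 0.05, against 14.9% of all genes. The lines did not overlap in 10 of 41 (24.4%), against 16.9% of all genes, with Mybl2, Cdc25a, Ccna2 and Mcm2 higher and Mki67, Ccne1, Mcm7, Ccnb2, Kif11 and Aurkb lower in brain lines. Besides Mki67, Ccne1 and Mcm7, the largest difference was in Ccnb2, the gene of cyclin B2, a partner of Cdk1. Its levels were 10.85, 10.71 and 10.97 in brain lines, 11.06, 11.12 and 11.23 in lung lines and 10.89, 11.12 and 10.99 in primary lines. Brain and lung lines did not overlap, and the difference was -0.29 ± 0.09 (-0.49 to -0.09, adjusted p = 0.151).

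In lung lines against primary lines, 0 of 41 genes passed, and 0 of all 19938 genes did (0%). At an unadjusted p under 0.05 there were 3 of 41 (7.32%), against 4.74% of all genes. The lines did not overlap in 9 of 41 (22%), against 8.71% of all genes, and all 9 were higher in lung lines, a direction in which 4.88% of all genes did not overlap. Of these, 8 were mitosis genes, Birc5, Cdc25c, Aurkb, Plk1, Kif20a, Bub1b, Ccna2 and Ttk, and the other was Mcm2. The largest differences were in Birc5, the gene of survivin, a subunit of the chromosomal passenger complex, and in Cdc25c, a phosphatase that activates Cdk1.

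Birc5 had 9.30, 9.12 and 9.01 in brain lines, 9.08, 9.20 and 9.15 in lung lines and 8.92, 8.98 and 8.83 in primary lines. Lung lines exceeded primary lines by 0.23 ± 0.09 (0.04 to 0.42, adjusted p = 0.975). Cdc25c had 8.11, 8.26 and 8.37 in brain lines, 8.44, 8.34 and 8.23 in lung lines and 8.13, 8.14 and 8.05 in primary lines, a difference of lung from primary lines of 0.23 ± 0.09 (0.04 to 0.42, adjusted p = 0.975). Primary lines were the lowest origin in Birc5, and brain line 1 lay among them in Cdc25c. Aurkb, the kinase of the passenger complex, differed by 0.21 ± 0.08 (0.03 to 0.38, adjusted p = 0.975).

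Cenpf had the opposite sign, with a difference of -0.19 ± 0.16 (-0.54 to 0.17, adjusted p = 0.975). Its levels were 8.63, 8.52 and 8.69 in brain lines, 8.72, 8.67 and 8.59 in lung lines and 9.17, 8.97 and 8.42 in primary lines. The highest and the lowest line were both primary lines. Without primary line 3, again left out after the values were seen, its difference of brain from primary lines was -0.46 ± 0.09 (limma adjusted p = 0.0464). With all lines it was -0.24. Here too the p rests on the values that set the line apart.

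The size of any difference was bounded. In each of the 3 comparisons, the 95% intervals of all 41 genes lay within a 2-fold change in either direction, as did those of 97.7%, 97.9% and 99.4% of all genes. Within 1.5-fold lay 37 of 41 in brain against primary lines, 39 in brain against lung lines and 40 in lung against primary lines, against 89.6%, 90.3% and 95.2% of all genes.

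**Figure D3:**
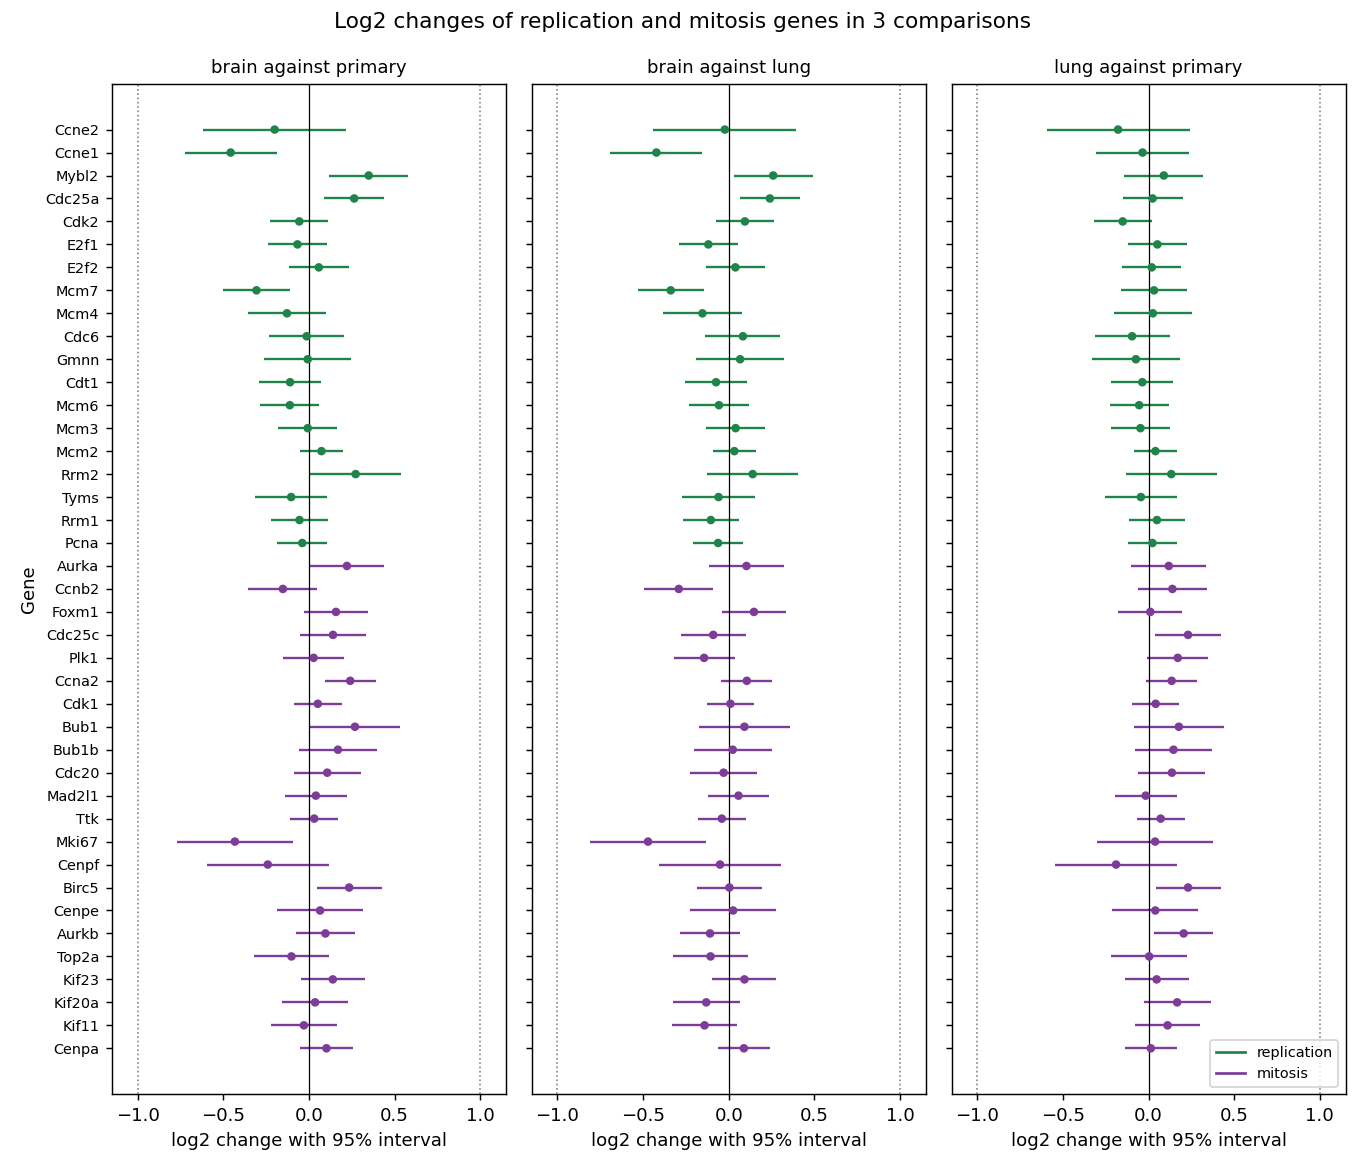
Points give the log2 change of each gene in the 3 comparisons and bars its 95% interval, with replication genes in green, mitosis genes in purple and dotted lines at a 2-fold change. No bar reaches a dotted line, and in lung against primary lines 20 of 22 mitosis points lie right of 0.

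Described apart, the replication and mitosis genes had median differences from primary lines of opposite sign in brain lines. In brain lines, 5 of 19 replication genes were above and 14 below the primary mean (median -0.06), and 17 of 22 mitosis genes were above and 5 below (median 0.08), beside a median of 0.00 over all genes. After centring each array on its median the replication split was 9 above and 10 below (median -0.01), where the median over all genes was 0.05. Between brain and lung lines the medians were -0.02 for replication and -0.01 for mitosis genes, beside -0.01 over all genes, and they were 0.00 and 0.01 after that centring, where the median over all genes was 0.02. The split of the mitosis genes there was 11 above and 11 below, and 7 above and 15 below (median -0.05) after the repeated quantile normalization. In lung lines, 20 of 22 mitosis genes were above the primary mean (median 0.11), and 10 of 19 replication genes were (median 0.02), beside a median of 0.01 over all genes. Without primary line 3, a choice made after the values were seen, 15 of 22 mitosis genes were above in lung lines (median 0.04) and 15 of 22 in brain lines (median 0.03). The lung lines then did not overlap the primary lines in 9 of 22 mitosis genes (40.9%), against 18.4% of all genes. None of these directions was tested.

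Line by line, primary line 3 stood apart in the mitosis genes. The mean deviation of the 22 mitosis genes from their 9-line means was -0.03, -0.01 and 0.06 in brain lines, 0.04, 0.08 and 0.01 in lung lines and 0.02, 0.00 and -0.17 in primary lines. The other 8 lines lay between -0.03 and 0.08. By origin this came to 0.00 ± 0.05 in brain lines, 0.04 ± 0.03 in lung lines and -0.05 ± 0.11 in primary lines (SD, n = 3 lines each). For the 19 replication genes the line means were -0.01, -0.01 and -0.04 in brain lines, -0.05, 0.03 and 0.03 in lung lines and 0.00, 0.02 and 0.03 in primary lines. The replication means had no such low line, and several of these small means depend on the scaling: after centring each array on its median, lung line 1 had -0.13 for replication and -0.05 for mitosis genes, and brain line 3 had 0.01 and 0.10.

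**Figure D4:**
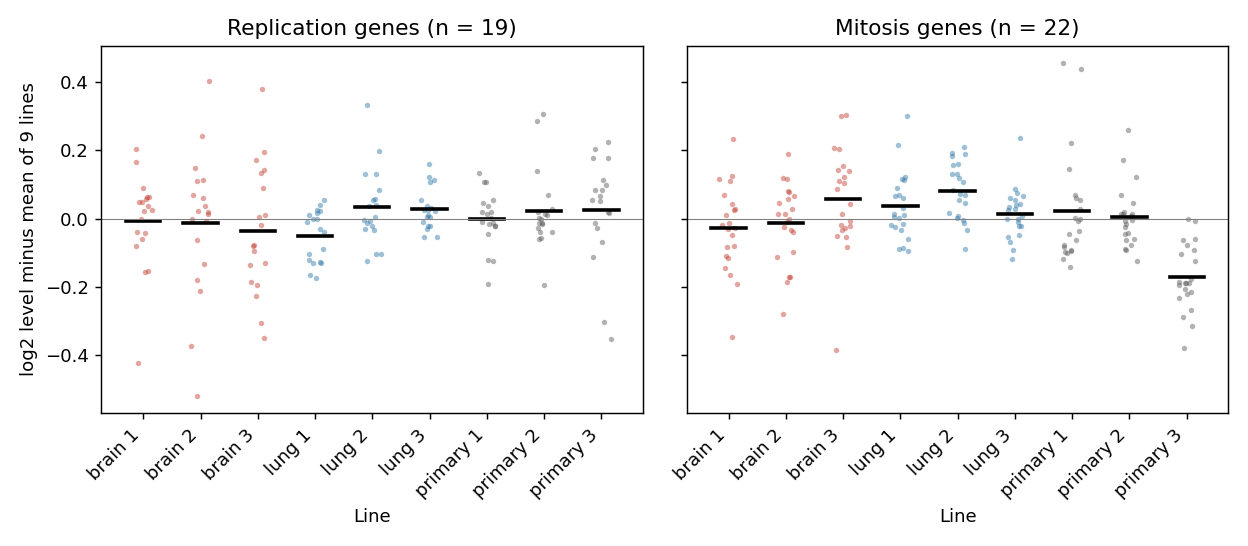
Each point is a gene's log2 level minus its mean over the 9 lines, in the line named on the horizontal axis, with the mean over genes as a black bar, for replication genes (left) and mitosis genes (right). In primary line 3 all 22 mitosis points lie below 0, with a mean of -0.17 (20 of 22 and -0.16 after median centring), while the mean of the replication points there is 0.03.

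In primary line 3 all 22 mitosis genes lay below their 9-line mean, where 53.3% of all genes did, and 16 of 22 had their lowest value of the 9 lines there, where 12.3% of all genes did. Under the repeated quantile normalization 20 of 22 were below and 14 were lowest there (mean -0.15), and after median centring 20 were below and 13 lowest (mean -0.16). The low values ran through every mitotic role. The mean was -0.15 over the 7 entry kinases and cyclins, -0.16 over the 5 spindle checkpoint genes and -0.19 over the 10 chromosome and motor genes. Bub1 stood at 9.96, 9.89 and 10.20 in brain lines, 9.88, 10.05 and 9.84 in lung lines and 9.83, 9.89 and 9.52 in primary lines, a deviation of -0.38 in primary line 3. Aurka stood at 9.86, 9.89 and 10.02 in brain lines, 9.72, 9.90 and 9.84 in lung lines and 9.78, 9.83 and 9.50 in primary lines, a deviation of -0.32 there. For Cenpf the deviation was -0.29. In Bub1 and Aurka, primary lines 1 and 2 lay close to the lung lines, and in Cenpf they lay above all other lines.

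Replication genes in the same line were not low as a group. In primary line 3, 6 of 19 were below their 9-line mean, and 5 of 19 had their highest value there. The 8 licensing genes averaged 0.11 above their means, and Mcm7, Cdt1 and Gmnn, the gene of geminin, which blocks Cdt1, were highest there. An exception was Rrm2, an E2F target for nucleotide supply, with 11.20, 11.14 and 11.16 in brain lines, 10.90, 11.16 and 11.02 in lung lines and 10.84, 11.17 and 10.68 in primary lines, its lowest value in primary line 3. Mybl2 and E2f2 were also lowest there. The mean of mitosis genes minus that of replication genes was -0.20 in primary line 3, and lay between -0.02 and 0.09 in the other 8 lines.

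Another list of 65 measured mitosis genes, none of them among the 41, was also low in primary line 3. Of these, 53 of 65 were below their 9-line mean there and 34 of 65 had their lowest value there, with a mean of -0.14, against means of -0.04 to 0.06 in the other lines. Of 53 other replication genes, 31 were below their mean in that line and 9 lowest, with a mean of -0.03. Both lists were read on the same 9 arrays and chosen with earlier results of these data known. They are therefore not separate support.

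In brain line 3 most licensing genes were low and most checkpoint genes high. Among the licensing genes, Gmnn lay 0.19 above its 9-line mean there and Mcm2 just above its own. Of the 8 licensing genes, 6 had their lowest value of the 9 lines there, namely Mcm3, Mcm4, Mcm6, Mcm7, Cdc6 and Cdt1, where 16.3% of all genes did, and the mean of the 8 was -0.14. After median centring 4 of the 8 were lowest there, with a mean of -0.10. Under that centring lung line 1 was as low, with 4 of the 8 lowest, all 8 below their means and a mean of -0.12. The low licensing values were thus particular to brain line 3 only in the deposited scaling and the repeated quantile normalization. Of the 6 named, Mcm4 was lowest in brain line 3 by the widest margin. It had 10.10, 10.07 and 9.70 in brain lines, 10.08, 10.09 and 10.17 in lung lines and 10.06, 10.07 and 10.14 in primary lines. The 5 spindle checkpoint genes had a mean of 0.16 in brain line 3, although Ttk lay just below its 9-line mean. Bub1b, the gene of BubR1, had 9.91, 10.02 and 10.32 in brain lines, 10.02, 10.07 and 10.09 in lung lines and 9.93, 9.98 and 9.83 in primary lines. Among the 53 other replication genes, 16 were lowest in brain line 3. This line also had the widest spread over all genes, at 0.187, and its part in these values was not tested.

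Lung line 2 had a mean of 0.08 for the mitosis genes, against 0.04 in lung line 1 (0.06 against 0.09 after the repeated quantile normalization), with 4 of 22 below their 9-line mean and 5 of 22 highest there. All 7 entry kinases and cyclins were above their mean in that line. In brain line 2, Mybl2 was at its highest, and Ccne2 and Ccnb2 at their lowest. In primary line 1, Mki67, Cenpf and Top2a, the topoisomerase that untangles replicated DNA, were all at their highest of the 9 lines, with Top2a at 11.40.

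How far pairs of genes varied together is given as a description over the 9 lines. The median Pearson correlation over 231 pairs of mitosis genes was 0.34, over 171 pairs of replication genes it was 0.00, and over 418 pairs of one of each it was -0.11. Without primary line 3 the median over mitosis pairs was 0.07. All pairs share the same 9 arrays and their scaling.

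Other genes of the cell cycle machinery gave a few calls. Of the 53 other replication genes, Gins4, a subunit of the GINS complex of the replicative helicase, fell in brain lines. It had 8.64, 8.77 and 8.68 in brain lines, 9.27, 9.22 and 9.30 in lung lines and 9.17, 9.38 and 9.38 in primary lines, a change of -0.61 ± 0.08 against primary lines (limma adjusted p = 0.0042) and -0.57 ± 0.08 against lung lines (adjusted p = 0.0090). No brain line overlapped the others. Against lung lines, Orc2, a subunit of the origin recognition complex, rose in brain lines by 0.50 ± 0.09 (adjusted p = 0.0239), and Pola2, a subunit of DNA polymerase alpha, fell by 0.38 ± 0.07 (adjusted p = 0.0230). No other gene of that list passed in any comparison, which made 1.89% of the list against 3.13% of all genes for brain against primary lines and 5.66% against 1.98% for brain against lung lines.

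Of the 65 other mitosis genes, 2 passed, both in brain against primary lines, or 3.08% against 3.13% of all genes. Cenpk, a kinetochore subunit, changed by -0.66 ± 0.10 (adjusted p = 0.0082), and Haspin, a kinase of mitotic chromatin, by 0.43 ± 0.10 (adjusted p = 0.0422). Cenpk had 7.25, 7.03 and 7.04 in brain lines, 7.25, 7.39 and 7.40 in lung lines and 7.62, 7.75 and 7.91 in primary lines, so that lung lines lay between.

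Of 30 measured genes of G1 control, Ccnd2 and Btg2 rose and Ccng2 fell in brain lines against both other origins, and none passed in lung against primary lines. These 3 made 10% of the list, against 3.13% of all genes called for brain against primary lines and 1.98% for brain against lung lines, and the median change of the list was 0.04 and 0.03. Ccnd2, the gene of cyclin D2, had 9.66, 9.85 and 9.31 in brain lines, 7.69, 7.32 and 7.33 in lung lines and 7.03, 6.94 and 6.25 in primary lines, a change of 2.86 ± 0.21 against primary lines. Ccng2, the gene of cyclin G2, which is raised in cells that leave the cycle, had 7.49, 7.66 and 7.83 in brain lines, 8.51, 8.51 and 8.61 in lung lines and 8.73, 8.85 and 9.07 in primary lines. Its change was -1.22 ± 0.11 against primary lines (adjusted p = 0.0012).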

How the data were processed

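RNA of 9 cell lines was hybridised to Affymetrix Mouse Gene ST arrays, 1 per line. The deposited log2 values were made with RMA by the authors, per the submitters' processing notes. RMA corrects the background, normalizes arrays by quantiles and summarises each probe set. Of 35557 probe sets, 21789 carried exactly 1 gene symbol, and the highest-mean probe set per symbol was kept for the 999 genes with several, which gave 19938 genes. Pcna and Top2a had a second probe set, which for Top2a lay below 4.18.

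Genes were tested in R 4.3.3 with limma 3.58.1 (lmFit and eBayes, 1 model of all 9 lines, two-sided, Benjamini-Hochberg over 19938 genes, called at an adjusted p under 0.05, 6 residual and 3.72 prior degrees of freedom). Errors after ± are standard errors unless marked SD. With 3 lines against 3, no exact permutation p can be smaller than 0.1. The genes and lists were chosen with earlier results of these data known. Named with full statistics are the 4 genes with the largest absolute change per comparison, with those of the widest range, and genes of other lists only where called. Some others were chosen after their values were seen.

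Mouse numbers recur in each origin, and what lines of the same number share is not stated. Deviations of same-numbered lines correlated at 0.284, 0.130 and 0.241 between brain and lung lines. Between lung and primary lines the values were 0.221, 0.079 and 0.008, and between brain and primary lines 0.067, -0.0007 and -0.044. Lines of different numbers were not compared in this way, so whether the numbers mark a pairing was not tested.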

Additional observations from a re-analysis of the deposited data

How the results depend on the processing

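Over 18 alternatives (a repeated quantile normalization, median centring, a filter on the dimmest 33.3% of genes, a robust prior with an intensity trend, weights per array, the mouse number as a block, every probe set and others, and leaving out each line), 211 of 216 values of the 12 gene differences given in full kept their direction and their side of the threshold, 5 came newly past it and 0 reversed. In brain against primary lines, 0 of the 41 were called as reported. The number was 1 after the repeated quantile normalization (Ccne1), 1 with the intensity trend and robust prior (Ccna2) and 1 with array weights (Ccne1). Of all genes, 784, 659 and 831 were called in the same settings, in that order, against 624 as reported. Leaving out each line in turn gave 0 to 2 of the 41, with 2 (Mki67 and Cenpf) without primary line 3, where 366 of all genes were called. In brain against lung lines the number of the 41 called was 1 after the repeated normalization and 1 with array weights (Mcm7 in both). Of all genes, 516 and 533 were called there. It was 0 of the 41 whenever a line was left out. With the mouse number as a replicate block, 0 of the 41 genes were called in any of the 3 comparisons or in the F test. That fit changed no call among them, and over all genes it called 839 in brain against primary lines and 566 in brain against lung lines. The causes were not tested. The shift of all genes between origins stayed under 0.05 in every scaling. Precision is limited by 3 lines per origin. In brain against primary, brain against lung and lung against primary lines, 37, 39 and 40 of the 41 intervals lay within 1.5-fold. Differences smaller than that remain possible for many genes.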
